A study of Homo sapiens with 4 samples.

Results

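The genes described here encode 2 BET proteins and 7 components of the super elongation complex: BRD2, BRD3, AFF1, AFF4, ELL, ELL2, MLLT1, MLLT3 and EAF1. They were chosen by name, as 9 of the 60279 human gene identifiers in the count table, and each name matched 1 identifier. Transient transcriptome sequencing (TT-seq) was used to capture newly made RNA of K562, an established leukaemia cell line of erythroid character, with no drug added. Cells took up the uridine analogue 4-thiouridine for 15 min (2 libraries) or 5 min (2 libraries), and RNA made in that time was biotinylated, pulled down and sequenced. RNA of Drosophila S2 cells was mixed in beforehand at a constant ratio by mass to the human RNA. No library had a treatment other than the label, and all came from this 1 cell line. Whether replicate libraries stem from different cultures is not stated, so the p-values reflect library-to-library spread alone, and that spread may be technical.

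BET proteins carry paired bromodomains that bind acetylated histone tails, and they help to recruit the kinase complex P-TEFb to active genes. P-TEFb phosphorylates RNA polymerase II and its pausing factors and so lets paused polymerase move into the gene body. The super elongation complex is a P-TEFb carrier built on the scaffold proteins AFF1 or AFF4. It also holds an ELL-family elongation factor (ELL, ELL2), an ELL-associated factor (EAF1) and a YEATS-domain reader of acylated histones (MLLT1, also called ENL, or MLLT3, also called AF9). Several of these genes, among them AFF1, MLLT1, MLLT3 and ELL, are known as fusion partners of KMT2A in acute leukaemia.

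The libraries held 5051370 and 4726327 human reads after 15 min and 4339981 and 4695405 after 5 min. Fly reads numbered 318710 and 308978 after 15 min and 897018 and 803914 after 5 min. All 10 erythroid markers looked up were detected (summed 1719 to 1765 CPM after 15 min and 2473 to 2688 CPM after 5 min). Of these, 7 fell in share, against 21.3% of all tested genes. By contrast, 14 of 21 markers of T cells, B cells, monocytes, fibroblasts and epithelium averaged under 1 CPM, and CD8A, MS4A1 and KRT5 had no read. The epithelial markers summed to between 32.9 and 34.7 CPM after 15 min and between 55.2 and 62.7 CPM after 5 min, nearly all of it EPCAM. The monocyte markers summed to between 21.6 and 22.8 CPM after 15 min and between 21.3 and 23.5 CPM after 5 min, with CSF1R the highest of them. The T cell markers summed to between 9.06 and 9.65 CPM after 15 min and between 14.6 and 17.0 CPM after 5 min. For the B cell markers the sums were 10.3 to 10.4 CPM after 15 min and 2.91 to 4.78 CPM after 5 min. Fibroblast markers summed to 0.771 to 1.44 CPM after 15 min and 2.63 to 2.69 CPM after 5 min. The part of any marker list in the results below was not tested. Levels are given as CPM, which are read counts scaled to a common library size with TMM factors (a correction for composition). CPM is therefore a share of the labelled RNA. A second scale, human reads per 1000 fly reads, follows the amount of labelled RNA per mass of total RNA. In bulk RNA, fewer producing cells and less RNA per cell cannot be told apart.

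Together the 9 genes took 0.180% and 0.184% of the human reads after 15 min and 0.146% and 0.132% after 5 min. BRD2 alone supplied 58.2% and 56.6% of those reads after 15 min and 48.7% and 45.1% after 5 min. Ranked by reads among all genes, BRD2 stood at position 39 in both 15 min libraries and at positions 92 and 135 in the 5 min libraries. Without the BET genes, the 7 elongation complex genes took 0.0717% and 0.0764% after 15 min and 0.0715% and 0.0692% after 5 min, so that most of the difference of the whole set came with BRD2.

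Of the 9 genes, 8 passed the filter on low counts and MLLT3 did not. After 15 min, relative to 5 min, BRD2 and ELL rose in share of the labelled RNA, MLLT1 fell, and BRD3, AFF1, AFF4, ELL2 and EAF1 did not pass the test. Among all 17322 tested genes, 16.8% rose and 21.3% fell. The counts of 2 higher and 1 lower among 8 are close to those shares. The median log2 fold change was 0.01 over the 8 genes and 0.03 over all tested genes.

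The promoters of the 3 genes that changed in share are shown so that the genes that rose and the gene that fell can be compared. They come from RefSeq on GRCh38.p14, run 5′ to 3′ on the gene's strand, and cover 250 bases before to 50 bases after the annotated start. Capitals mark matches, on either strand, to the motifs searched (TATAAA, the GC box GGGCGG, the E-box CACGTG, the ETS motif CCGGAAG, the CRE TGACGTCA, the AP-1 motif TGACTCA, the GATA motif AGATAA and CCAAT). BRD2 has 4 such windows, of which the most upstream (chr6:32968344-32968643, plus strand) is printed, and the counts do not tell its starts apart. The ELL window is chr19:18522021-18522320 and the MLLT1 window chr19:6279926-6280225, both on the minus strand.
BRD2: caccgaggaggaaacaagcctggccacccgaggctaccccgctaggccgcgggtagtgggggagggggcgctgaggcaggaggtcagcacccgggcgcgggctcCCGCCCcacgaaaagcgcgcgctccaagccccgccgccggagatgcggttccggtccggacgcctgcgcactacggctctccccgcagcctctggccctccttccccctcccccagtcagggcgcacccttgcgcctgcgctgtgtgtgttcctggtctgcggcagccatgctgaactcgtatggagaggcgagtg
ELL: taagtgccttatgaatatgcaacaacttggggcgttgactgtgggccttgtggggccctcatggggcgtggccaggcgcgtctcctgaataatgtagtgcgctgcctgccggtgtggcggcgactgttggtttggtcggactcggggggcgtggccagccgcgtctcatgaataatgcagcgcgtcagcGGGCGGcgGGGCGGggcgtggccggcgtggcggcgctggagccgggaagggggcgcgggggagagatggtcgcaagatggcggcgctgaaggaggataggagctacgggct
MLLT1: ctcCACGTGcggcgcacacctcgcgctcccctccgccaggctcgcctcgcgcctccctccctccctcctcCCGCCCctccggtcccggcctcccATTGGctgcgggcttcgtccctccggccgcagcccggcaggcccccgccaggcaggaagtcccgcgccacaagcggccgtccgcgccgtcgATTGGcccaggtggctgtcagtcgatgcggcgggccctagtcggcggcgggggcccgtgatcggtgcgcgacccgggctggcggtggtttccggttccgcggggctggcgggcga
In this BRD2 window a single GC box begins 146 bases before the start, on the opposite strand. ELL has GC boxes beginning 61 and 53 bases before the start. MLLT1 has an E-box 247 bases before the start. On the opposite strand it has a GC box 180 bases before the start and CCAAT boxes 156 and 65 bases before it. None of these matches overlaps another. Over all members, 8 (all but ELL2) have at least 1 window in the table (12 windows in all), and 11 of the 12 hold a GC box, against 45.0% of all 35116 windows. No member window holds TATAAA (11.5% of all windows), the CRE (1.85%) or the AP-1 motif (4.95%). The E-box lies in the windows of AFF4 and MLLT1 (7.26% of all windows), the ETS motif in that of EAF1 (10.3%), and the GATA motif in 1 of the BRD2 windows (10.3%). CCAAT was found in 5 of the 12 windows (34.6% of all windows). GC content of the member windows ran between 50.3% and 85.0%, and 11 of the 12 lay above the median of all windows, 58.7%. A match is a run of letters and not a measured binding site.

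BRD2 (ENSG00000204256, chromosome 6, 32968660 to 32981505, plus strand) lies in the major histocompatibility complex and had the highest level and the largest gain of the 9 genes. It had 5293 and 4932 reads in the 15 min libraries, against 3094 and 2806 in the 5 min libraries. As CPM these were 1020.3 and 1013 after 15 min and 739 and 628 after 5 min, so both 15 min libraries lay above both 5 min libraries. In all, 34.6% of tested genes had both 15 min libraries above both 5 min libraries and 33.0% had both below. The log2 fold change in share was 0.57 ± 0.0608 (SE, edgeR quasi-likelihood test, adjusted p = 1.89e-19), which is 1.49-fold with a 95% interval of 1.37 to 1.62. That value stood at the 86.4th percentile of all tested genes. BRD2 shares 435 bases with HLA-DMA on the other strand, which had 8 to 13 reads per library.

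BRD3 (ENSG00000169925, chromosome 9, 134030305 to 134068535, minus strand) is the other BET gene of the set and had the lowest level per kb of the detected genes. It had 186 and 174 reads after 15 min and 160 and 166 after 5 min, which are 35.9 and 35.7 CPM after 15 min and 38.2 and 37.2 CPM after 5 min. The groups did not overlap, but the log2 fold change was -0.07 ± 0.125 (SE, edgeR, adjusted p = 0.683). Its 95% interval of 0.801- to 1.13-fold does not reach the fold of BRD2. BRD3 overlaps the coding gene BRD3OS and the antisense gene AL445931.1 on the other strand, and no source used here states how strand was treated in counting, so its count is uncertain.

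**Figure D1:**
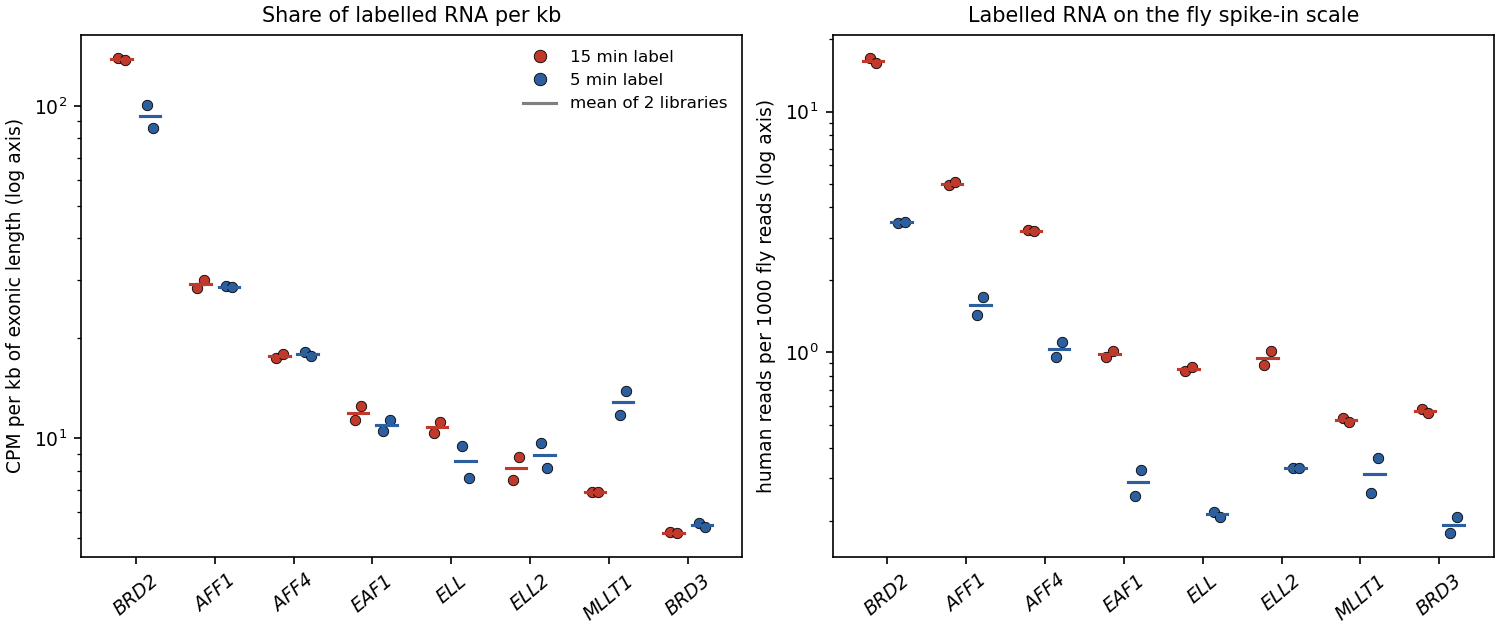
Levels of the 8 detected genes in each library, as CPM per kb of exonic length (left) and as human reads per 1000 fly reads, not corrected for length (right), both on log axes. Points are single libraries (15 min left of 5 min for each gene) and lines are means of 2 libraries; BRD2 is the highest on both scales, and MLLT1 is the one gene whose CPM per kb after 15 min lies well below that after 5 min. MLLT3, at 0 in every library, is not drawn.

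Levels of different genes were compared per kb of merged exonic length, as CPM per kb. After 15 min the order was BRD2 (139 ± 0.737), AFF1 (29.2 ± 1.27), AFF4 (17.7 ± 0.355), EAF1 (11.9 ± 0.778), ELL (10.8 ± 0.538), ELL2 (8.12 ± 0.919), MLLT1 (6.90 ± 0.0184) and BRD3 (5.20 ± 0.0132; mean ± SD of CPM per kb, n = 2). After 5 min it was BRD2 (93.2 ± 10.7), AFF1 (28.6 ± 0.0699), AFF4 (17.9 ± 0.381), MLLT1 (12.8 ± 1.48), EAF1 (10.9 ± 0.581), ELL2 (8.92 ± 1.07), ELL (8.54 ± 1.35) and BRD3 (5.48 ± 0.107). BRD2 thus had 4.75 times the level of AFF1, the next gene, after 15 min and 3.25 times after 5 min. The order of ELL2 and ELL after 5 min is within their spread, since their libraries overlap (9.68 and 8.16 CPM per kb for ELL2, 9.49 and 7.59 for ELL). No other neighbours in either order had overlapping libraries. MLLT1 stood below EAF1, ELL and ELL2 after 15 min and above them after 5 min. These orders depend on the length used, and whether introns were counted is not stated in the sources used here. Per kb of locus span, BRD2 still led, with 79.4 and 78.8 CPM per kb after 15 min and 57.5 and 48.9 after 5 min. EAF1 (2.52 and 2.76 after 15 min) and AFF4 (2.24 and 2.30) then lay above AFF1 (1.47 and 1.57). BRD3 was no longer the lowest on that length, with 0.938 and 0.934 CPM per kb of span after 15 min, above MLLT1 (0.471 and 0.469), ELL (0.645 and 0.692) and ELL2 (0.711 and 0.835).

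The scaffold genes AFF1 and AFF4 kept nearly the same share at both label times. AFF1 (ENSG00000172493, chromosome 4, 86935002 to 87141054, plus strand), the scaffold first known from its fusion with KMT2A, had 1573 and 1571 reads after 15 min and 1289 and 1370 after 5 min. These were 303 and 323 CPM after 15 min and 308 and 307 CPM after 5 min, with overlapping groups. The log2 fold change was 0.03 ± 0.0615 (SE, edgeR, adjusted p = 0.782), a 95% interval of 0.936- to 1.11-fold. AFF4 (ENSG00000072364, chromosome 5, 132875379 to 132963634, minus strand), the scaffold that bridges P-TEFb and ELL proteins, had 1024 and 989 reads after 15 min and 860 and 890 after 5 min. Its 197 and 203 CPM after 15 min overlapped the 205 and 199 CPM after 5 min. The log2 fold change of AFF4 was -0.01 ± 0.0660 (adjusted p = 0.886), a 95% interval of 0.905- to 1.08-fold.

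Of the elongation factor genes ELL and ELL2, whose proteins suppress pausing by RNA polymerase II, ELL rose in share and ELL2 did not pass the test; the difference between them was not tested. ELL (ENSG00000105656, chromosome 19, 18442663 to 18522127, minus strand) had 266 and 268 reads after 15 min and 196 and 167 after 5 min. In CPM, ELL had 51.3 and 55.0 after 15 min and 46.8 and 37.4 after 5 min, with no overlap. Its share rose by a log2 fold change of 0.34 ± 0.111 (SE, edgeR, adjusted p = 0.00791; 1.27-fold, 95% interval 1.09 to 1.47). The ELL call was lost with DESeq2 (0.33, adjusted p = 0.176). It was also lost when replicate 2 of either label time was left out, with 0.27 (adjusted p = 0.133) for the 15 min library and 0.17 (adjusted p = 0.379) for the 5 min library. Over all alternatives its adjusted p ran between 0.000373 and 0.379. ELL2 (ENSG00000118985, chromosome 5, 95885098 to 95962071, minus strand) had 284 and 313 reads after 15 min and 297 and 267 after 5 min. As CPM these were 54.7 and 64.3 after 15 min and 70.9 and 59.8 after 5 min, which overlap (log2 fold change -0.13 ± 0.0973, adjusted p = 0.278).

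EAF1 (ENSG00000144597, chromosome 3, 15427355 to 15450635, plus strand) encodes a factor that binds ELL proteins and stimulates their activity. It had 304 and 313 reads after 15 min and 227 and 261 after 5 min, or 58.6 and 64.3 CPM after 15 min and 54.2 and 58.4 CPM after 5 min. The groups were just separate, but the log2 fold change of 0.12 ± 0.0999 (SE, edgeR) did not pass (adjusted p = 0.345). EAF1 shares 13212 bases with METTL6 and 14465 bases with the antisense gene EAF1-AS1, both on the other strand, so its count is uncertain.

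MLLT1 (ENSG00000130382, chromosome 19, 6210379 to 6279948, minus strand), the YEATS-domain subunit ENL, lost the most share of the set. It had 170 and 159 reads after 15 min, against 234 and 294 after 5 min, although the 15 min libraries held more human reads. These counts were 32.8 and 32.6 CPM after 15 min and 55.9 and 65.8 CPM after 5 min, so the groups lay well apart. The log2 fold change was -0.90 ± 0.113 (SE, edgeR, adjusted p = 5.43e-14), or 0.537-fold with a 95% interval of 0.460 to 0.626. Of all tested genes, 2.98% had a lower value. MLLT1 overlaps AC011471.2 on the other strand (36 reads at most in a library) and AC011471.3 on its own strand (19 reads at most).

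MLLT3 (ENSG00000171843, chromosome 9, 20341665 to 20622543, minus strand), the YEATS-domain paralog of MLLT1, had 0 reads in all 4 libraries. At the depths of these libraries a count of 0 allows up to 3 counts, which is 0.594 and 0.635 CPM, here on raw human totals, in the 15 min libraries and 0.691 and 0.639 in the 5 min libraries. Its paralog MLLT1 had at least 159 reads in each library. Small genes annotated inside the MLLT3 locus (RNU4-26P, AL163193.1, MIR4473 and MIR4474) also had 0 reads in every library. No fold change or rate was computed for MLLT3.

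The region around MLLT3 was looked at after this 0 was seen. Between the nearest coding genes on either side with at least 100 reads in all (ACER2 with 147 and CAAP1 with 351), 29 coding genes lie in 7.39 Mb of chromosome 9, and 27 of them had 0 reads in every library. The exceptions were FOCAD, directly beside MLLT3, with 58 reads in all, and SLC24A2 with 1 read. From the end of FOCAD to the start of CAAP1, 26 of 26 coding genes were at 0 over 5.84 Mb. Most of them are interferon genes, including the interferon alpha cluster. MTAP and the cell cycle inhibitor genes CDKN2A and CDKN2B are also among them. Other coding genes within the plotted range were at 0 as well, among them C9orf92, BNC2, CNTLN, SH3GL2 and ADAMTSL1, which lie in a row. The share of all coding genes at 0 was not computed, so these counts have no background beside them. Genes with many reads lay on both sides of the stretch. The ribosomal protein gene RPS6, for example, had 2249 and 2061 reads after 15 min and 3053 and 3292 after 5 min. Gene copy number was not measured, and what keeps these genes at 0 was not tested.

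**Figure D2:**
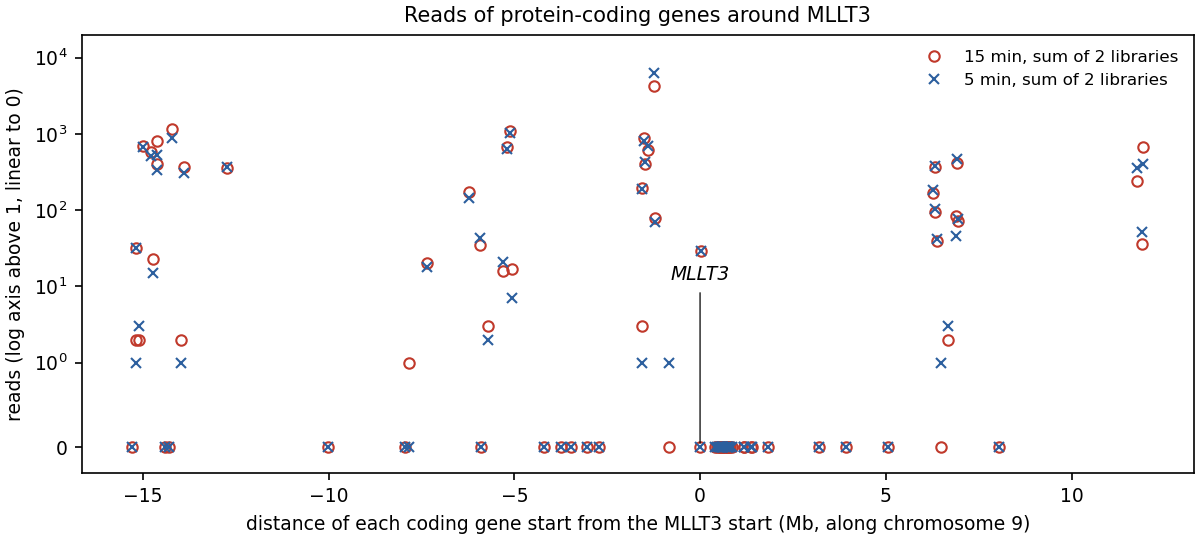
Reads of 81 protein-coding genes in a window around MLLT3 on chromosome 9, plotted by the distance of each gene start from the MLLT3 start in Mb, with the sum of 2 libraries at each label time (reads axis is logarithmic above 1 and linear to 0). MLLT3 and the genes to its right lie at 0 up to CAAP1, except FOCAD beside it with 58 reads over the 4 libraries.

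On the scale of the fly reads, all 8 tested genes rose between 5 and 15 min, as 98.4% of all tested genes did. Both 15 min libraries lay above both 5 min libraries for these 8 genes and for 99.0% of all tested genes. The median fold was 3.15 over the 8 genes and 3.20 over all tested genes, and the ratio of the label times was 3. Every fold on this scale depends on the fly totals of the 4 libraries, and an error in those totals would shift all genes alike. BRD2 had 16.6 and 16.0 reads per 1000 fly reads after 15 min and 3.45 and 3.49 after 5 min. That is 4.69-fold with a 95% interval of 3.65 to 6.04 (edgeR, adjusted p = 1.59e-31). ELL had 0.835 and 0.867 reads per 1000 fly reads after 15 min and 0.219 and 0.208 after 5 min, 3.99-fold with a 95% interval of 3.11 to 5.11. For BRD2 and ELL the interval lay above the ratio of the label times.

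MLLT1 had 0.533 and 0.515 reads per 1000 fly reads after 15 min and 0.261 and 0.366 after 5 min. Its fold of 1.68 (95% interval 1.31 to 2.15, edgeR, adjusted p = 5.18e-05) was the lowest of the set, and the interval lay below the ratio of the label times. Labelled MLLT1 RNA therefore still rose on this scale while its share fell. The intervals of the other 5 genes held 3. EAF1 had 0.954 and 1.01 reads per 1000 fly reads after 15 min and 0.253 and 0.325 after 5 min, 3.41-fold. AFF1 was at 4.94 and 5.08 after 15 min and 1.44 and 1.70 after 5 min on the same scale, 3.19-fold. AFF4 was at 3.21 and 3.20 after 15 min and 0.959 and 1.11 after 5 min, 3.11-fold. These folds lie near the median of all tested genes, and the groups are well apart. BRD3 rose 2.98-fold, to 0.584 and 0.563 after 15 min, against 0.178 and 0.206 after 5 min. ELL2 rose 2.87-fold, to 0.891 and 1.01 after 15 min, against 0.331 and 0.332 after 5 min. The adjusted p of these 5 genes lay at or below 1.74e-16 (BRD3).

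**Figure D3:**
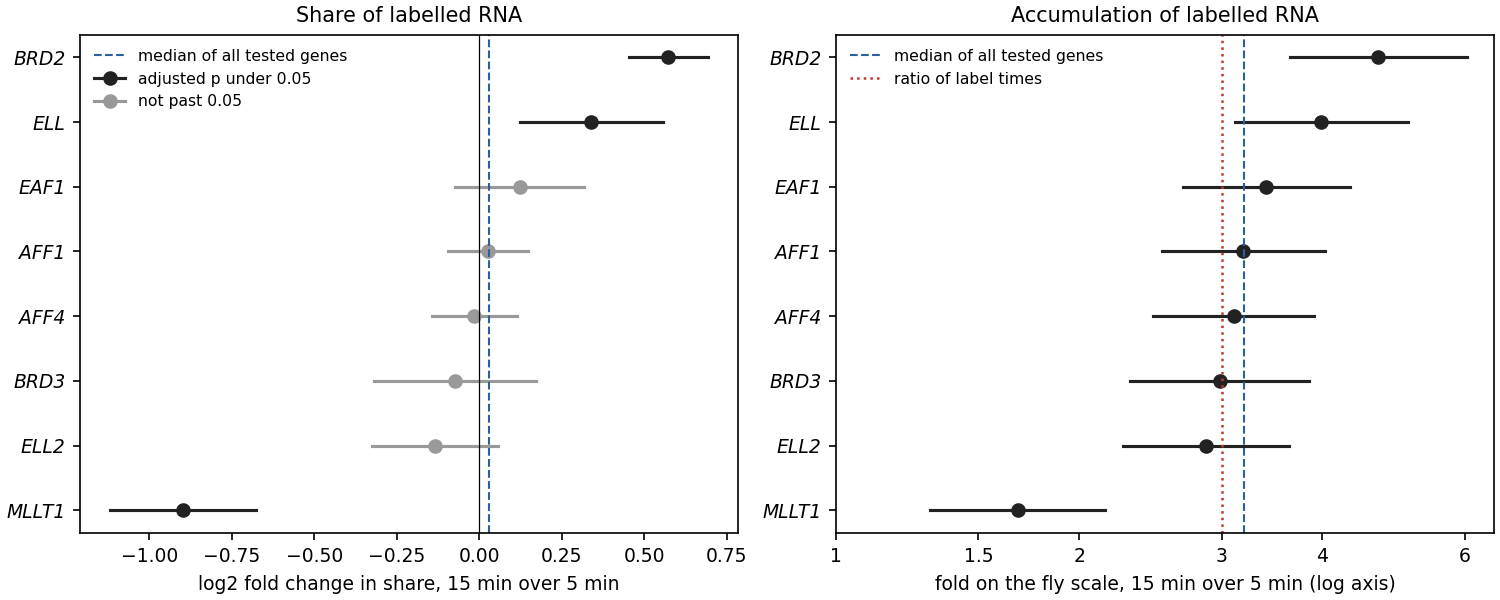
Log2 fold change in share (left) and fold on the fly scale (right, log axis) of the 8 tested genes, 15 min over 5 min, with 95% intervals from the edgeR fit. In share, the intervals of BRD2 and ELL lie above and that of MLLT1 below the median of all tested genes (dashed, 0.03); on the fly scale BRD2 lies above and MLLT1 below the median (dashed, 3.20-fold), and the dotted line marks the ratio of the label times, 3.

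Locus length was set beside the change in share as a description, with no test. The shortest locus, BRD2 with 12.8 kb, had the largest gain, and the longest tested locus, AFF1 with 206 kb, had a log2 fold change of 0.03. MLLT1 (69.6 kb), ELL2 (77.0 kb) and ELL (79.5 kb) have loci of similar length and log2 fold changes of -0.90, -0.13 and 0.34. EAF1 with 23.3 kb, BRD3 with 38.2 kb and AFF4 with 88.3 kb stood near 0.

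Ratios of paralogs within a library do not depend on how libraries are scaled. Reads per kb of BRD2 were 26.7 and 26.6 times those of BRD3 after 15 min and 18.1 and 15.8 times after 5 min. The lower of the 15 min ratios is thus well above the higher of the 5 min ratios. AFF1 had 1.62 and 1.67 times the reads per kb of AFF4 after 15 min and 1.58 and 1.62 times after 5 min, so the groups overlap (15 min mean 1.64 ± 0.0390, 5 min mean 1.599 ± 0.0301, SD, n = 2). ELL2 had 0.718 and 0.786 times the reads per kb of ELL after 15 min and 1.02 and 1.08 times after 5 min. On this measure ELL2 lay below ELL after 15 min and level with it after 5 min. No ratio could be formed for MLLT1 over MLLT3. With 2 libraries against 2, no exact permutation test can pass 0.05, so these ratios carry no test.

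**Figure D4:**
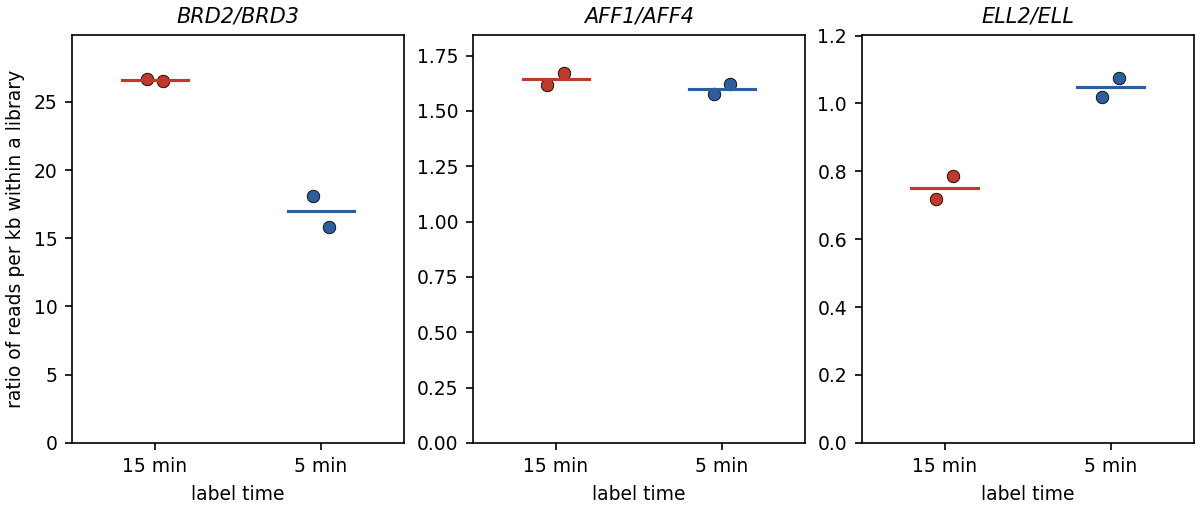
Ratio of reads per kb of exonic length between paralogs within each library, for BRD2 over BRD3, AFF1 over AFF4 and ELL2 over ELL, at 15 min (left of each panel) and 5 min; points are libraries, lines are means, and each axis starts at 0. The ratio is higher after 15 min for BRD2 over BRD3 (26.6 against a mean of 17.0), lower for ELL2 over ELL (0.752 against 1.05) and close for AFF1 over AFF4.

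A production rate, a single value per gene without scale, unit or error, was also deposited by the authors, and it is read here by rank among the 11777 genes that have one. BRD2 had a rate of 0.193, position 168 from the top and the 98.6th percentile. AFF1 followed with 0.0529 (90.9th percentile) and AFF4 with 0.0288 (78.4th percentile). ELL with 0.0163, MLLT1 with 0.0154 and ELL2 with 0.0150 lay close together, between the 58.3rd and the 60.7th percentile. BRD3 had 0.00694, the 36.9th percentile. The highest rate of the set was 27.8 times the lowest, and the highest level per kb was 26.6 times the lowest detected one after 15 min and 17.0 times after 5 min. BRD2, AFF1 and AFF4 led and BRD3 came last by rate and by CPM per kb of exonic length at both label times. Per kb of locus span this order did not hold beyond BRD2. Which libraries lie behind the rate is not stated, so it may come from these same libraries and is not a separate measure of the order. Rates of EAF1 and MLLT3 were not analysed here.

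Other genes of the pathway were read by lists, as counts and medians of the share log2 fold change beside all tested genes (16.8% higher, 21.3% lower, median 0.03). The 11547 protein-coding genes among them had a median of -0.08. Among the genes of P-TEFb and the 7SK complex that restrains it, 4 of 8 rose and none fell, with a median of 0.22. The kinase gene CDK9 rose by 0.42 (adjusted p = 2.08e-06), its cyclin genes CCNT1 by 0.21 (0.00308) and CCNT2 by 0.23 (0.0016), and MEPCE, which encodes the 7SK capping enzyme, by 0.47 (6.93e-09, all edgeR adjusted p). The inhibitor genes HEXIM1 (0.16, adjusted p = 0.102) and HEXIM2 (0.40, adjusted p = 0.0798) and the 7SK-binding LARP7 (0.07, adjusted p = 0.672) did not pass. RN7SK, the RNA of the complex, had 888 and 1676 CPM after 15 min and 5791 and 7408 CPM after 5 min, a log2 fold change of -2.37 that did not pass (adjusted p = 0.0955). The calls of both cyclin genes were lost with DESeq2 (adjusted p = 0.0995 for CCNT1 and 0.0786 for CCNT2) and when the first 5 min library was left out (0.171 for CCNT1 and 0.138 for CCNT2). Leaving out the second 15 min library also ended the CCNT1 call (0.108), and leaving out the first ended the CCNT2 call (0.0747). RN7SK passed with DESeq2 (-2.38, adjusted p = 1.29e-05) and without either 15 min library (-1.99 and -2.92). Scaled to total counts 6 of these 8 genes rose, HEXIM1 (adjusted p = 0.00453) and HEXIM2 (0.0222) among them. With DESeq2 2 of the 8 rose and 1, RN7SK, fell.

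The lists of other elongation factors had medians below that of the protein-coding genes. Of the little elongation complex, in which ELL proteins serve small nuclear RNA genes, ICE1 (-0.28, adjusted p = 0.000208) and ICE2 (-0.27, adjusted p = 0.000777) fell and ZC3H8 (-0.26, adjusted p = 0.0505) did not pass. For DSIF and NELF, which hold polymerase at the pause, 3 of 6 genes fell and none rose (median -0.16). NELFB fell by 0.88 on the log2 scale (adjusted p = 9.52e-15), close to MLLT1. In the PAF complex with SPT6, 3 of 7 fell and none rose (median -0.19): CTR9 (-0.53), CDC73 (-0.52) and RTF1 (-0.34). Of the DOT1L complex with KMT2A and its partner MEN1, 2 of 5 fell and none rose (median -0.19), MEN1 (-0.67, adjusted p = 4.73e-06) and MLLT10 (-0.20, adjusted p = 0.0114). The MLLT10 call was lost with DESeq2 (adjusted p = 0.155), with total counts (0.263) and when the second 15 min library was left out (0.352). ICE1 missed when the first 15 min library was left out (adjusted p = 0.0563), and ICE2 with total counts (0.0553). ZC3H8 passed with RLE factors, another scaling (-0.27, adjusted p = 0.0414).

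Of the relatives of the super elongation complex genes, YEATS4 fell (-0.36, adjusted p = 0.0138), and YEATS2 (-0.08, adjusted p = 0.491) and EAF2 (-0.04, adjusted p = 0.942) did not pass. The YEATS4 call was lost with DESeq2 (adjusted p = 0.176), with total counts (0.0949) and when the first 15 min library was left out (0.408). AFF2, AFF3 and ELL3 did not pass the count filter, with at most 1, 1 and 9 reads in a library. Among 29 other bromodomain genes 3 rose and 13 fell, with a median of -0.18. The 2 with the smallest p in each direction were BRD9 (0.54, adjusted p = 2.59e-13) and BRPF1 (0.53, adjusted p = 1.00e-11), which rose, and TRIM28 (-0.88, adjusted p = 1.2e-43) and SMARCA4 (-0.72, adjusted p = 1.00e-26), which fell. Scaling to total counts gave 5 higher and 9 lower of the 29, 1 lower of 6 for DSIF and NELF, 1 lower of 5 for the DOT1L list and 1 lower of 3 for the little elongation complex. DESeq2 gave 2 higher and 8 lower of the 29, 1 lower of 6 for DSIF and NELF and 1 lower of 5 for the DOT1L list. On the fly scale all tested genes of these lists rose except RN7SK, which fell to 0.599 of its 5 min value (adjusted p = 0.000162). That fall was lost with DESeq2 (log2 fold change -0.74, adjusted p = 0.157). Leaving out the first 15 min library (-0.37, adjusted p = 0.395), the first 5 min library (-1.01, adjusted p = 0.398) or the second 5 min library (-0.40, adjusted p = 0.679) also ended the call. EAF2 missed on the fly scale when the second 15 min library was left out (adjusted p = 0.0813).

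**Figure D5:**
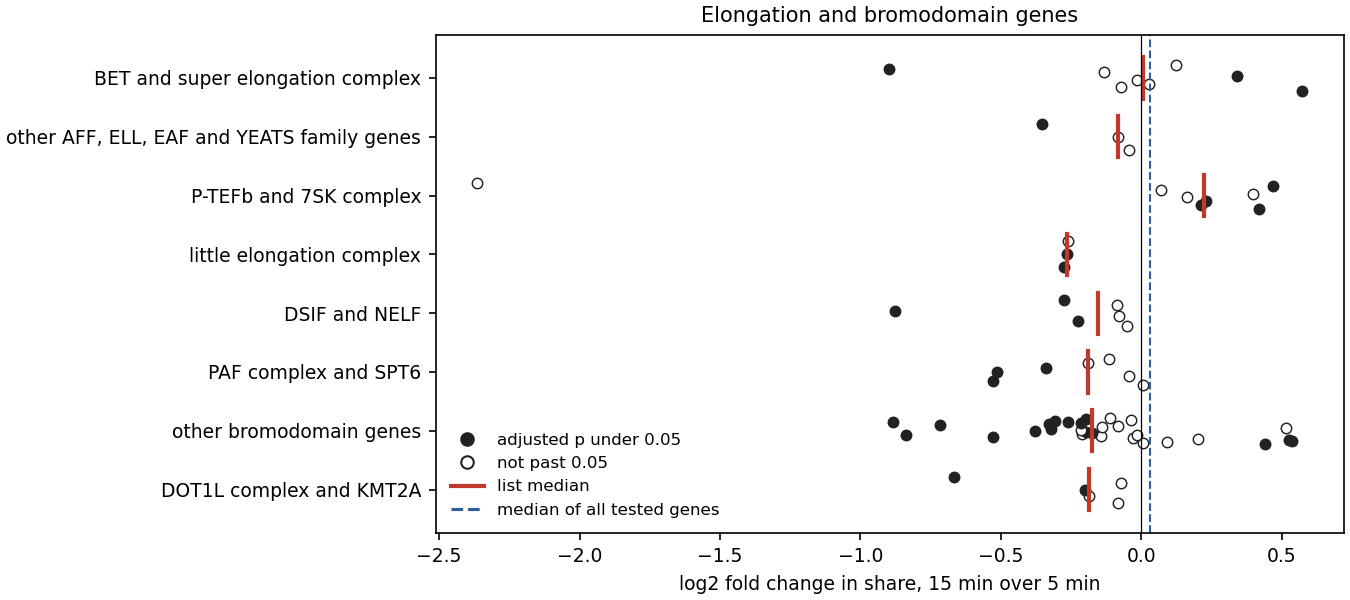
Log2 fold change in share, 15 min over 5 min, of each tested gene (points, filled where the adjusted p was under 0.05) in the BET and super elongation complex set and in lists of related factors, with list medians (red) and the median of all tested genes (dashed, 0.03). The P-TEFb and 7SK list is the one with a median above that of all tested genes (0.22), with RN7SK far to the left at -2.37.

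The genes with at least 5 on the log2 CPM scale whose pattern over the 4 libraries was nearest to that of BRD2 were SLC25A44, MIR29B2CHG and PSMD9. Their distances were 0.0438, 0.0445 and 0.0453 among 6969 genes (Euclidean, on log2 CPM centred on each gene). Nearest to MLLT1 were SKP2 (0.0199), COX7A2 (0.0472) and QPRT (0.0591). With 4 libraries many genes can lie this close.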

How the data were processed

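As the authors deposited them, the human and fly files hold read counts by gene, whole and without normalization, with 1 column for each library. The rates are a deposited score of synthesis with 1 value a gene; per the file headers no scale is known. The submitters' processing notes name bcl2fastq (2.17.1.14), STAR (2.7), featureCounts, Subread (2.0.1) and edgeR, and the builds hg38 and dm6. No source used here states which features were counted or how strand was treated.

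Positions and exonic lengths were taken from the GENCODE 29 annotation, also on hg38. Share was tested with the robust quasi-likelihood fit of edgeR 4.0.16, with label time as the only term, TMM factors and the filterByExpr filter (minimum count 10). Accumulation used the same test with library sizes set to the fly totals. P-values were two-sided, Benjamini-Hochberg adjusted over 17322 genes and read at 0.05. Standard errors come from the F statistic. The fit was tested on simulated data with the same spread for every gene and without the real fly totals. That test therefore does not check the spread of single genes or the fly scale. Replicates were not duplicates of one library, since chi-square per degree of freedom was 1.75 for 15 min and 1.604 for 5 min. Library depth is in the results, and floors cover counting error only. Alternatives were DESeq2 1.42.0, other scalings, no filter, a replicate block and leaving out each library.

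The members and lists were chosen with earlier results of these data known. All members are named. In lists of up to 8 tested genes any gene may be named, otherwise the 2 with the smallest p in each direction, plus the 3 genes nearest in pattern to the members with the highest and lowest change.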

Additional observations from a re-analysis of the deposited data

How the results depend on the processing

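The calls for BRD2 and MLLT1 in share, and the rise of all 8 genes on the fly scale, kept their direction and their side of the threshold under every alternative run. The log2 fold change in share ran between 0.45 and 0.68 for BRD2 and between -1.04 and -0.78 for MLLT1. DESeq2 called 3293 genes in share (923 higher, 2370 lower) against 6607 (2915 higher, 3692 lower), and 1 of the 8 genes as higher in place of 2. Leaving out each library in turn gave 4729 to 5626 called genes, 1729 to 2149 higher ones, and 1 to 2 of the 8 genes higher. The lower counts of higher genes, 1795 and 1729, came from leaving out the first 15 min library and the second 5 min library. Such fits leave 1 library in a group, which is assumed to vary like the others. With total counts as the scale, the median over all genes was 0.13 on the log2 scale, and 60.4% of the calls were higher, against 44.1%. It also turned BRD3 and AFF4, which were not called, to values above 0 (0.03 and 0.09).

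With a replicate block 6958 genes were called in share and 16993 on the fly scale, and no call among the 8 genes changed. Of the 24 named pathway genes, RN7SK (-2.42, adjusted p = 6.66e-315) and ZC3H8 (-0.26, adjusted p = 0.0334) passed in share with the block and not without it. The titles share replicate numbers, but with 2 pairs (correlation of deviations 0.0487) the numbers were not taken to pair cultures.

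Per kb of locus span in place of exonic length, BRD2 had 30.1 times the level of the next member after 15 min, which was then EAF1. As ratios of raw reads, BRD2 over BRD3 was 28.4 after 15 min, AFF1 over AFF4 was 1.56 after 15 min and 1.52 after 5 min, and ELL2 over ELL was 1.12 after 15 min and 1.56 after 5 min. Ranked among the 10806 tested genes with a rate, the percentiles were 90.1 for AFF1, 76.4 for AFF4, 57.2 for ELL, 55.6 for MLLT1, 54.6 for ELL2 and 31.5 for BRD3. With 2 libraries a label time, small changes in share are not detectable for the less abundant genes. Of 215 settings for 24 named pathway genes in share, 14 lost and 8 gained a call.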

Other observations

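Genes that overlap the members had counts of their own that differed between label times in a few cases, and these were picked after their values were seen. AL445931.1, antisense to BRD3, had 65 and 60 reads after 15 min and 22 and 20 reads after 5 min. AC010335.1, antisense to ELL, had 9 and 12 reads after 15 min and 1 and 1 after 5 min. AC010240.2, a processed pseudogene on the other strand within AFF4, had 155 and 123 reads after 15 min and 73 and 81 after 5 min. These differences were not tested, and without the strand setting of the counting, reads of a gene and of its antisense partner cannot be told apart.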
